A study of Mus musculus with 2 samples.

Results

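The genes of DNA repair and of the cellular response to topoisomerase I damage were examined in mouse bone marrow-derived dendritic cells. The set was a list of 39 genes chosen by name, with earlier results of these data known. It covered topoisomerase I itself, single-strand break repair, checkpoint kinases, homologous recombination, the Fanconi anaemia pathway, mismatch repair, end joining and nucleotide excision repair with its p53-linked companions. Every probe set annotated with exactly 1 gene symbol, and with that symbol in the list, was taken, which gave 36 probe sets for 35 of the 39 genes among 22180 genes measured in all. Rad54b, Fanca and Ddb2 were represented only by probe sets that carry another gene's symbol as well, Xrcc2 by none under this rule, and none of these 4 is described.

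The dendritic cells, which the submitters call GMDC, formed 2 groups of 1 array each. The control group is labelled only as control. The other group received conditioned medium taken from topotecan-treated cultures of E0771, a mammary cancer cell line of the mouse. Mouse strain and age, drug dose and culture time are not in the labels used here. Neither the control's medium nor any remaining topotecan in the conditioned medium is described in the labels. What the drug did to the tumour cells therefore cannot be told apart from what tumour cell medium does without it. No value below has a replicate error, no test between the conditions was possible, and each difference is one between 2 arrays.

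Topotecan stabilises the intermediate in which topoisomerase I is covalently joined to a nick in DNA. TDP1 cuts the trapped enzyme from the DNA end and the XRCC1 scaffold helps to close the nick, but a replication fork that meets the complex can turn it into a double-strand break. Such breaks activate ATM, ATR and the checkpoint kinases and are repaired mainly by homologous recombination together with the Fanconi anaemia proteins, many of which are made chiefly in the S and G2 phases of the cell cycle. End joining by Ku, DNA ligase IV and XRCC4 works in all phases, and nucleotide excision repair removes bulky lesions and also works in resting cells.

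Values are log2 intensities, and each difference is the conditioned-medium value minus the control value. A filter level of 4.10 was set at the median over both arrays, and a gene was kept when its higher value reached it. Of the 35 measured members 32 were kept, out of 13712 kept genes. A fold of at least 2 was used to count genes. Between different probe sets of the same gene, over 652 genes, the log2 difference varied with a pooled SD of 0.46. This measures the spread between probe sets on these arrays, whether technical or not, and not the spread between cultures.

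The repair genes were mostly lower in the conditioned-medium culture. Among the 32 kept members, 7 were at least 2-fold lower, against a background of 6.84% of kept genes. No member was 2-fold higher (0 of 32), where the background was 8.63%. These 7, which make up 21.9% of the kept members, were Fancl, Fancb, Rad51ap1, Exo1, Blm, Chek2 and Brca1. A further 25 lay between. The difference was below 0 for 25 of the 32, against 54.0% of kept genes, and the median was -0.54 (quartiles -0.96 and -0.05) against -0.07 over all kept genes. Set against the probe set SD of 0.46, 17 members were lower by more than it, where 24.5% of kept genes were, 4 were higher by more than it, where 20.5% were, and 11 lay within it. In bulk RNA, fewer cells of a kind and less RNA per cell cannot be told apart.

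The filter bears on these counts. For 8 kept members (Fancb, Rad54l, Exo1, Blm, Brca1, Fancd2, Fanci and Fancm) the control value alone reached 4.10, whereas for 0 members did the conditioned-medium value alone reach it, so a gene in this set had to be lower. Over all 35 measured members with no filter, 7 were at least 2-fold lower and 0 higher, against 4.94% and 5.79% of all 22180 genes, 26 lay below 0, against 52.3%, and the median was -0.46. Over the 24 members at or above 4.10 on both arrays, 3 were at least 2-fold lower (Fancl, Rad51ap1 and Chek2), which is 12.5% against 6.16% of genes so filtered, and 0 were higher, against 8.01%. For those 24 the median was -0.38 against -0.06, and 17 lay below 0, against 53.9%. With values under 4.10 set to 4.10, 4 of the 32 were at least 2-fold lower and 0 higher, against 5.91% and 7.83% of kept genes, since Exo1, Blm and Brca1 then differed by -0.85, -0.59 and -0.56.

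**Figure D1:**
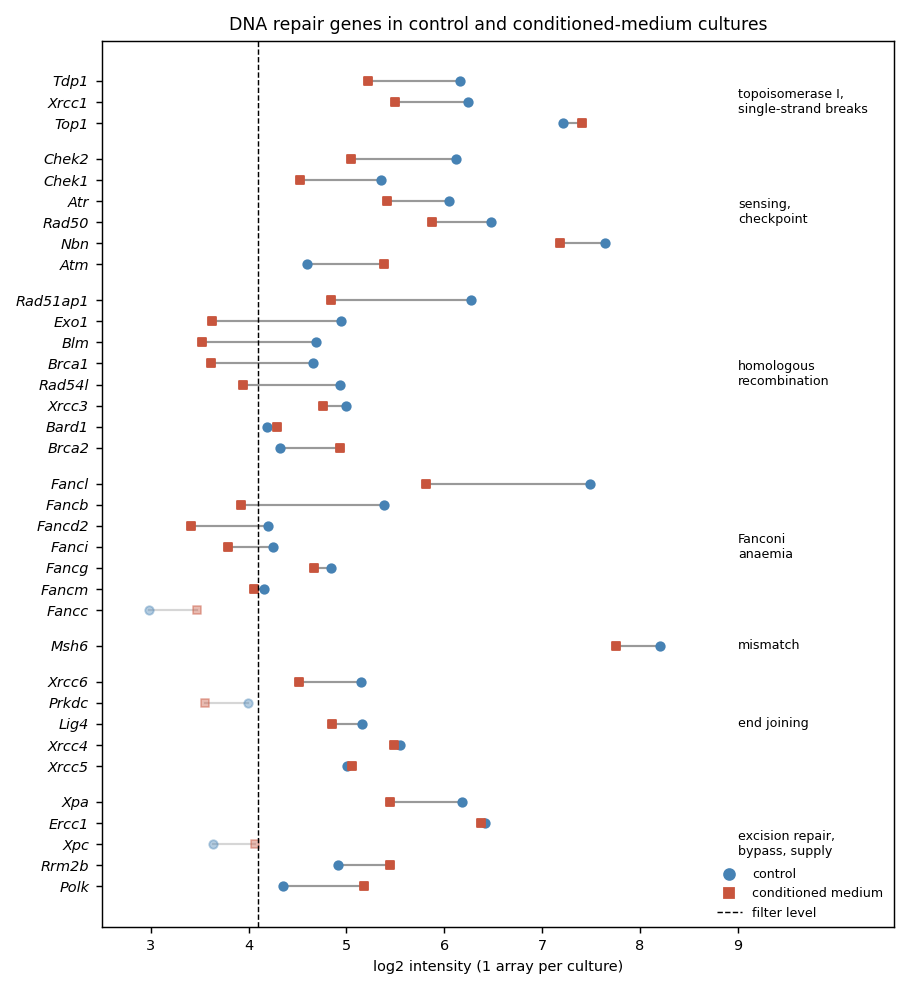
Log2 intensity of the 35 measured repair genes on the control array (circles) and the conditioned-medium array (squares), grouped by pathway and ordered by difference within each. The dashed line marks the filter level of 4.10, and the 3 genes below it on both arrays (Fancc, Prkdc and Xpc) are drawn faint; most squares lie left of their circles, and among kept genes those of Top1, Atm, Bard1, Brca2, Xrcc5, Rrm2b and Polk lie right.

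Top1, the target of topotecan, had nearly the same value on both arrays, first 7.22 (control) and then 7.40 (probe set 17379011), a difference of 0.19. Of the 3 members of its group 0 passed 2-fold. Tdp1 stood at 6.16 and 5.22, 1.93-fold lower and just short of the 2-fold mark, and 7.72% of kept genes had a lower difference. Xrcc1, the scaffold of single-strand break repair, stood at 6.24 and 5.50, 1.68-fold lower.

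Among the damage sensors and checkpoint kinases, 5 of 6 were lower, with a median of -0.62. Chek2, the kinase downstream of ATM, stood at 6.12 and 5.05, 2.10-fold lower, the only one of the 6 past 2-fold. Chek1, the kinase downstream of ATR, stood at 5.35 and 4.53, 1.77-fold lower. The apical kinases differed in sign. Atr, activated by stalled forks, stood at 6.05 and 5.41 (difference -0.63), and its second probe set, under the filter level at 3.45 and 2.65, differed by -0.80. Atm, activated by double-strand breaks, was the exception of the group, at 4.60 and 5.38, 1.71-fold higher. Rad50 (6.48 and 5.87) and Nbn (7.64 and 7.18), subunits of the MRE11 complex that recruits ATM to breaks, differed by -0.61 and -0.46, close to each other. Mre11a, the gene of the MRE11 subunit, is not a member and was named after its value was seen. It did not follow them, at 6.30 and 6.39, a difference of 0.10.

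Homologous recombination held 4 of the 7 genes past 2-fold, and its 8 kept members had a median difference of -1.01. Rad51ap1, a cofactor of the strand exchange step, stood at 6.27 and 4.84, 2.70-fold lower (probe set 17471201). Exo1, an exonuclease of end resection that also acts in mismatch repair, stood at 4.95 and 3.62, 2.51-fold lower as deposited. Blm, a RecQ helicase that dissolves recombination intermediates, stood at 4.69 and 3.52, 2.24-fold lower. These and the next gene belong to one pathway but not to one signal range: of the 4, Rad51ap1 alone kept both values above the filter level.

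Brca1, which promotes end resection, stood at 4.66 and 3.62, 2.05-fold lower as deposited and 1.47-fold lower against the filter level. Its obligate partner Bard1 did not follow it, at 4.19 and 4.29, a difference of 0.10. Brca2, a mediator of strand exchange, was higher, at 4.32 and 4.93, a difference of 0.61. All 3 had values near or under the filter level. Rad54l, a DNA translocase of strand exchange, stood at 4.94 and 3.95 and missed the 2-fold mark narrowly (1.99-fold lower). Xrcc3, which acts in the same pathway, stood at 5.00 and 4.76, a difference of -0.24. Over the 4 members of this pathway with both values at or above the filter level the median was -0.071, so the group value rests on genes whose conditioned-medium signal was under it.

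The Fanconi anaemia pathway held the lowest member. Fancl, the ubiquitin ligase of the core complex, stood at 7.49 and 5.81, 3.21-fold lower (probe set 17247898), the only member past 3-fold lower (background 2.11%, and 4.14% for 3-fold higher, where there were 0), and 1.75% of kept genes had a lower difference. Fancb, another core complex subunit, stood at 5.38 and 3.92, 2.75-fold lower as deposited, with a difference of -1.46, or -1.28 against the filter level. The pair lay well apart from the other members of the pathway. Fancd2 (4.20 and 3.41) and Fanci (4.25 and 3.79), which form the clamp that the core complex ubiquitinates, had control values just above the filter level, and against that level they differed by -0.10 and -0.15. Fancg, a core subunit, stood at 4.84 and 4.67, and Fancm, the translocase that brings the complex to DNA, at 4.16 and 4.06, differences of -0.18 and -0.10. Fancc, a core subunit, was under the filter level on both arrays (2.98 and 3.47). All 6 kept members were below 0, with a median of -0.63 as deposited and -0.17 against the filter level. For Fancb, Fancd2, Fanci and Fancm that sign was set by the filter, since only their control values reached it. Fancg and Fancl, above it on both arrays, could have differed either way, and the unkept Fancc was higher by 0.49.

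Msh6, a mismatch recognition protein, stood at 8.20 and 7.76, a difference of -0.45, within the spread between probe sets. End joining had a median difference of -0.19 over 4 kept members. Xrcc5 (Ku80) stood at 5.00 and 5.05 and its dimer partner Xrcc6 (Ku70) at 5.15 and 4.51, differences of 0.05 and -0.64. Xrcc4 stood at 5.55 and 5.49 and Lig4, the ligase it stabilises, at 5.16 and 4.85, differences of -0.06 and -0.31. Prkdc, the catalytic subunit of the DNA-dependent protein kinase, was under the filter level on both arrays at 3.99 and 3.55. None of these 5 genes passed 2-fold in either direction.

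Excision repair, bypass and nucleotide supply held the highest member. Polk, a translesion polymerase, stood at 4.35 and 5.18, 1.77-fold higher, the highest difference of all members. Rrm2b, the p53-inducible subunit of ribonucleotide reductase that supplies nucleotides outside S phase, stood at 4.91 and 5.45, 1.45-fold higher. Xpc, which detects lesions across the genome, was under the filter level on both arrays (3.63 and 4.06). Of the general excision factors, Ercc1, part of an incision nuclease, was level at 6.41 and 6.38, and Xpa, which verifies damage, was lower at 6.18 and 5.45, a difference of -0.73. The group median was 0.25 over 4 kept members, with 2 below 0, and turned to -0.38 with a filter at the 75th percentile, which left Xpa and Ercc1. Other genes of these pathways had medians below 0: -0.45 for excision repair, with 10 of 14 below 0, and -0.39 for bypass and supply, with 11 of 13 below 0. At a threshold of 1.5-fold, 16 kept members were lower, against 17.9% of kept genes, and 3 were higher (Atm, Brca2 and Polk), against 16.6%.

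**Figure D2:**
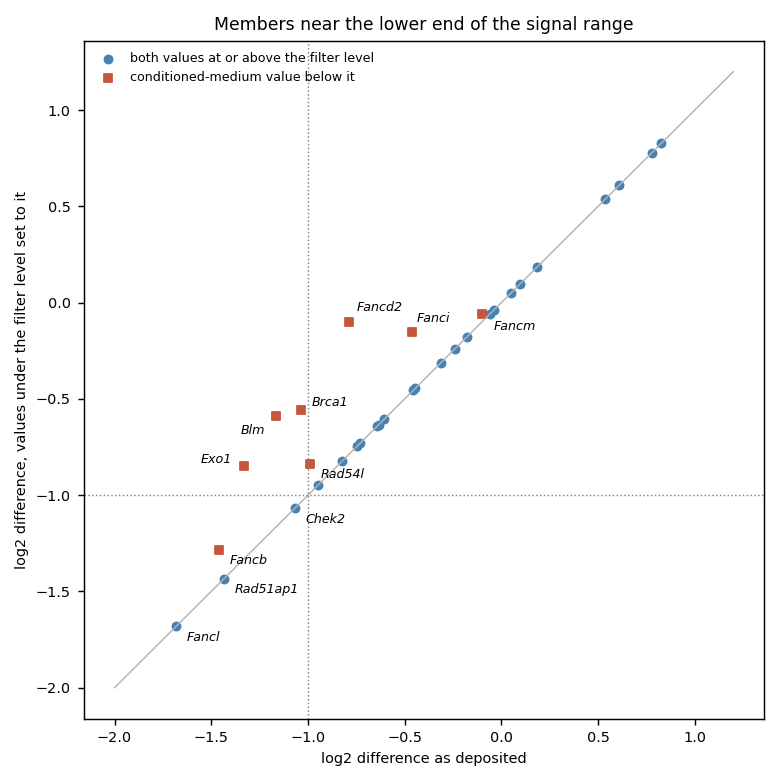
Log2 difference of the 32 kept members as deposited (horizontal) and with values under the filter level of 4.10 set to it (vertical); dotted lines mark 2-fold lower. Squares are the 8 members whose conditioned-medium value lay under the filter level, and 3 of them (Exo1, Blm and Brca1) pass 2-fold only as deposited.

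Other genes of the same pathways, from lists of 133 genes of which 111 were kept, were also more often lower than higher: 14 were at least 2-fold lower, 2 higher and 95 between, with a median of -0.33. That is 12.6% lower and 1.80% higher, where all kept genes had 6.84% and 8.63%, and single lists hold few genes. Against the filter level 13 were lower and 2 higher. Homologous recombination again had members past 2-fold, 5 of 24 lower (4 against the filter level) and 0 higher (median -0.49). Recql, a RecQ helicase, was the lowest at 5.90 and 4.27, and the Holliday junction resolvase gene Gen1 stood at 5.26 and 3.70. Rad21, a cohesin subunit (-0.02), and Rad51d (0.24), were the highest. In the Fanconi anaemia list 2 of 10 were at least 2-fold lower, Fance, a core complex subunit (6.61 and 4.99), and Ube2t, the conjugating enzyme that works with FANCL (6.53 and 5.06), and 0 were higher. Usp1, which removes that ubiquitin, differed by -0.19 and Faap24 by 0.45.

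Of 23 other genes for topoisomerases and base excision repair, 4 were at least 2-fold lower and 1 higher. Top2a, the topoisomerase II of dividing cells, stood at 8.53 and 5.67, 7.28-fold lower, whereas Top2b, the form that resting cells keep, stood at 6.75 and 5.80, 1.93-fold lower. Lig1, the replicative ligase, was 3.45-fold lower (7.48 and 5.69), and Parp1, which senses nicks, stood at 5.90 and 4.89, 2.02-fold lower. Polb, the gap-filling polymerase of base excision repair, was 2.31-fold higher (7.65 and 8.86), and Top3a differed by 0.89. Tdp2, which releases trapped topoisomerase II, was nearly level at 5.76 and 5.57.

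In the checkpoint list 1 of 17 was lower and 1 higher (5.88% each, near the shares over all kept genes). These were Tipin (7.08 and 5.86) and Timeless (4.32 and 6.06), which encode the subunits of one fork protection complex and lay on opposite sides. Topbp1, an activator of ATR, differed by -0.85 and Wee1, an inhibitor of CDK1, by 0.47. Of 7 end joining genes, Nhej1, which encodes XLF, a partner of XRCC4, was 3.17-fold lower (6.72 and 5.05), Polq differed by -0.51, Poll by 0.31 and Mad2l2 by 0.45. None of 14 excision repair genes passed 2-fold, from Gtf2h4 (-0.82) and Ercc6 (-0.61) to Ddb1 (0.53) and Gtf2h3 (0.88), and 10 of the 14 were below 0, with a median of -0.45. Nor did any of 3 mismatch repair genes, with Pms1 at -0.89, Msh3 at -0.04 and Mlh3 at 0.25. In the list of bypass and nucleotide supply, Rrm1, the large subunit of ribonucleotide reductase, was 2.96-fold lower (6.90 and 5.33), the only 1 of 13 past 2-fold. Its S phase partner Rrm2 stood at 10.43 and 9.58, a difference of -0.85 beside the 0.54 of Rrm2b. Poli differed by -0.96, Rad18 by 0.00 and Polh by 0.46. The 2 deposited values of Rad18 were identical (5.17), as were those of 1722 of 41345 probe sets. The reason for such identical values was not tested.

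**Figure D3:**
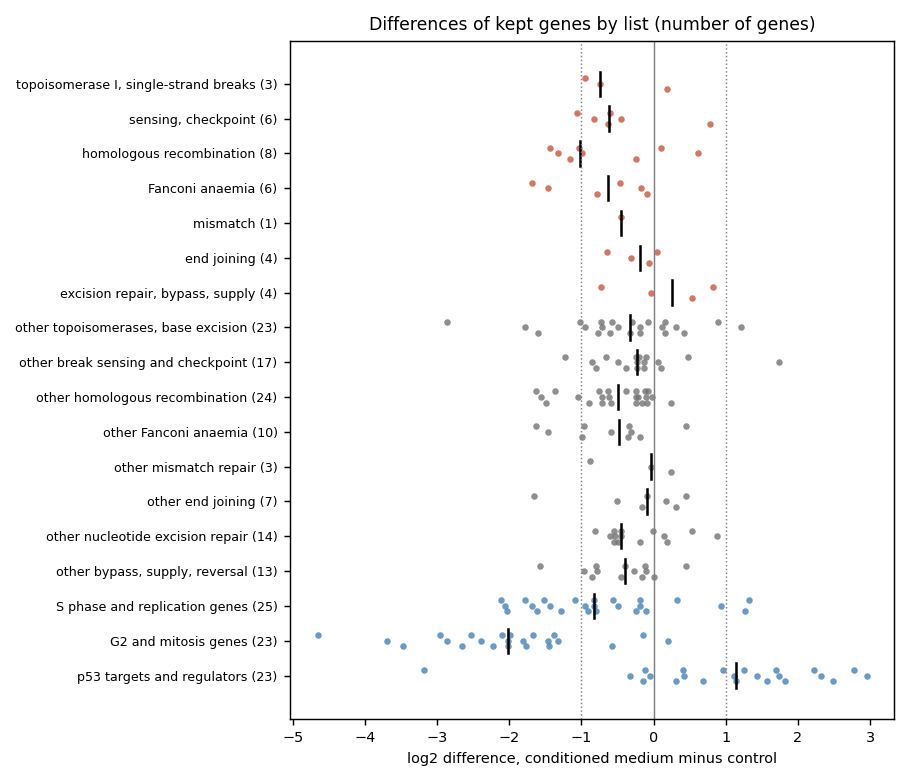
Log2 difference (conditioned medium minus control) of each kept gene in the 7 pathway groups of members (red), 8 lists of other repair genes (grey) and 3 reference lists (blue), with black bars at the medians and dotted lines at 2-fold. Member medians run from -1.01 for homologous recombination to 0.25 for excision repair, bypass and supply; the mitosis list lies lowest at -2.01 and the p53 list highest at 1.15.

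Proliferation genes were lower on the same array. In a list of S phase and replication genes 10 of 25 kept genes were at least 2-fold lower and 2 higher, with a median of -0.83. Cdc45 (7.10 and 4.99) and Prim1 (7.92 and 5.86) were the lowest and Rfc3 (1.32) and Ccne1 (1.26) the highest, and Pcna, the sliding clamp, stood at 10.51 and 9.56. In a list of G2 and mitosis genes 20 of 23 were at least 2-fold lower and 0 higher, with a median of -2.01, from Ccnb2 (-4.66) and Ube2c (-3.69) to Cenpe (-0.15) and Mybl2 (0.20). The mean log2 level on the control and the conditioned-medium array was 6.36 and 5.60 for 25 measured S phase genes, and 6.81 and 4.83 for 24 measured mitosis genes. The median of the kept repair members, -0.54, lay between that of all kept genes and those of these lists. Top2a stands in both the topoisomerase and the mitosis list. The part of cell division in their differences was not tested.

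Genes of the p53 response were mostly higher, in contrast to most repair members. Of 23 kept genes, 13 were 2-fold or more higher and 1 was lower, where all kept genes had 8.63% and 6.84%. The median was 1.15. Only 18 of the 23 reached the filter level on the control array. Against that level 11 were 2-fold or more higher, where 7.83% of kept genes were, and the median was 0.70. Cdkn1a, which arrests the cycle, stood at 9.11 and 11.33, 4.68-fold higher, and Mdm2, the ligase that degrades p53, at 6.57 and 7.72, 2.21-fold higher. Perp (2.96) and Trp53inp1 (2.77) had the highest differences and Sesn1 (-3.17) and Bbc3 (-0.33) the lowest. The control value of Perp (3.90) and the conditioned-medium values of Sesn1 (3.34) and Bbc3 (3.95) were under the filter level. Against it Perp, Sesn1 and Bbc3 differed by 2.75, -2.41 and -0.175. The p53-linked members Polk and Rrm2b differed in the same direction as this list, by 0.83 and 0.54, but neither reached 2-fold. Trp53 is not analysed here.

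**Figure D4:**
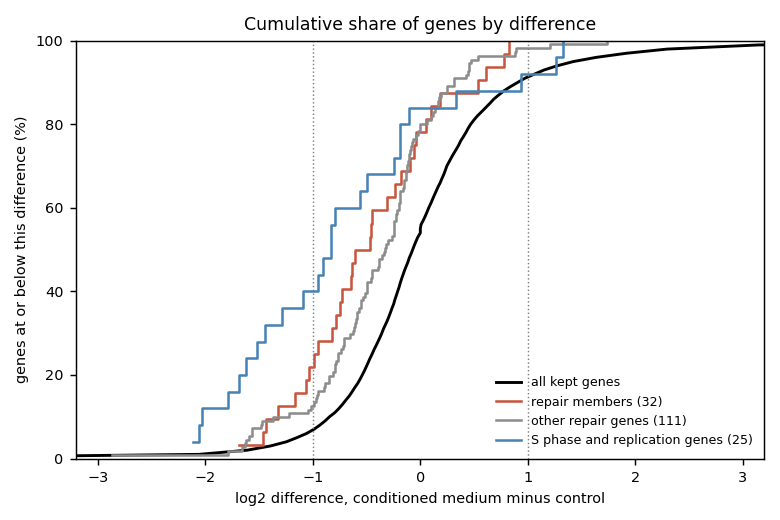
Share of genes (percent, vertical) at or below a given log2 difference (horizontal) for all 13712 kept genes, the 32 kept repair members, 111 other kept repair genes and 25 S phase and replication genes; dotted lines mark 2-fold. The curve of the members lies left of that of all kept genes over most of the range, ends at 0.83, and has its median at -0.54 against -0.07.

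The promoter windows of the members were read to show what sequence lies at the start of genes that differed and genes that did not. RefSeq promoters (build GRCm38.p6, 250 bases before to 50 after the start site) were held for 28 of the 35 measured members and 27 of the 32 kept. The windows below are those of the 2 kept members with the lowest and the 2 with the highest difference, of Top1, and of Chek2 and Bard1, which were added after their matches were seen because both carry an E2F match. They are written 5′ to 3′ on the gene's strand. Capitals mark matches on either strand to the E2F site (TTTCCCGC, TTTCGCGC, TTTGGCGC or TTTGCCGC), the CHR element of cell cycle genes (TTTGAA or TTCGAA), the CCAAT box (CCAAT), the GC box (GGGCGG), the interferon response element (TTTC, any pair of bases, TTTC) or a pair of p53 half-sites. In these 7 windows no matches to different motifs overlapped.
Fancl, chr11:26386834-26387133, plus strand: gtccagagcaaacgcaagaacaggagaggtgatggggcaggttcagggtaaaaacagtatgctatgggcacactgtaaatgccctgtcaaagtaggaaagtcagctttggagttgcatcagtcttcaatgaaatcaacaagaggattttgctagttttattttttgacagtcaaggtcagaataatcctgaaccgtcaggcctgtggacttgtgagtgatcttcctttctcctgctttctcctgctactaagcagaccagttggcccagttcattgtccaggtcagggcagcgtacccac
Fancb, chrX:164980342-164980641, plus strand: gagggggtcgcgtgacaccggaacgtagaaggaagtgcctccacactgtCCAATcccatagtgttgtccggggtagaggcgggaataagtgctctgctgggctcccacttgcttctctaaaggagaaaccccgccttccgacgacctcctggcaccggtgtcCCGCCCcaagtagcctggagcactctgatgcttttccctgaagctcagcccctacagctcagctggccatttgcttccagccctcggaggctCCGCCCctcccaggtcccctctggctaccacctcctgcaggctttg
Chek2, chr5:110839733-110840032, plus strand: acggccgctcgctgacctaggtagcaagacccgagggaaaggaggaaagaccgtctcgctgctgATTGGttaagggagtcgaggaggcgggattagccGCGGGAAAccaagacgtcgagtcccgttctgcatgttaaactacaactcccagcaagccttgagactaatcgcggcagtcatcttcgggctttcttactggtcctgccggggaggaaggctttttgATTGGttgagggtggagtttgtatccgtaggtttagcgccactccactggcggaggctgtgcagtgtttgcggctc
Bard1, chr1:71102923-71103222, minus strand: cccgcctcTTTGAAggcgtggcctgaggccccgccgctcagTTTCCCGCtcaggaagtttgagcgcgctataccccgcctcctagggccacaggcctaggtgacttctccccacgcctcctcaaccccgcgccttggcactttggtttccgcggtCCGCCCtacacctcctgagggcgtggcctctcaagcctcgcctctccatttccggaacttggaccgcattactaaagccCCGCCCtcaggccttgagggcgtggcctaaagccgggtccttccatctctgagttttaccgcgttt
Top1, chr2:160645647-160645946, plus strand: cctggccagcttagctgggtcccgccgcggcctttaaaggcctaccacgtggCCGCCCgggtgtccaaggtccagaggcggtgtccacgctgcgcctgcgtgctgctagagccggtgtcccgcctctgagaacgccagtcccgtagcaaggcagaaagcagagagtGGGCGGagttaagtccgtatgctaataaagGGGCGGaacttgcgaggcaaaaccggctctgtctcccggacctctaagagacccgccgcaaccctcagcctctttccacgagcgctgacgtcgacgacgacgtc
Atm, chr9:53536622-53536921, minus strand: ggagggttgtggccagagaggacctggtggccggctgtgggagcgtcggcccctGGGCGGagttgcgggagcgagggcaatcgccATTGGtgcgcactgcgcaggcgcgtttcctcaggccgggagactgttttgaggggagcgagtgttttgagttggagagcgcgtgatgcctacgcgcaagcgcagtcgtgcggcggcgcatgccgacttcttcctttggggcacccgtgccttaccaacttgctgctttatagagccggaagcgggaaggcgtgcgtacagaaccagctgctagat
Polk, chr13:96542530-96542829, minus strand: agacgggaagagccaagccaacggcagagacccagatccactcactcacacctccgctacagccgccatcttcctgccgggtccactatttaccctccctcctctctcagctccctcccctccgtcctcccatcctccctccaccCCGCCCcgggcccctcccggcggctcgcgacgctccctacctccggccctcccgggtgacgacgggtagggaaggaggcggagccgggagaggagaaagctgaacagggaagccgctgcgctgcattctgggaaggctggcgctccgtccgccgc

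Fancl, the lowest member, had 0 matches to any of these motifs in its window. Fancb had 1 CCAAT box and 2 GC boxes, and Chek2 had 1 E2F match on the minus strand between -152 and -145 bases from the start site with 2 CCAAT boxes. Bard1 had an E2F match between -209 and -202, a CHR match and 2 GC boxes, yet its 2 array values were nearly equal. Top1 had 3 GC boxes and Polk 1, while Atm had 1 GC box and 1 CCAAT box.

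**Figure D5:**
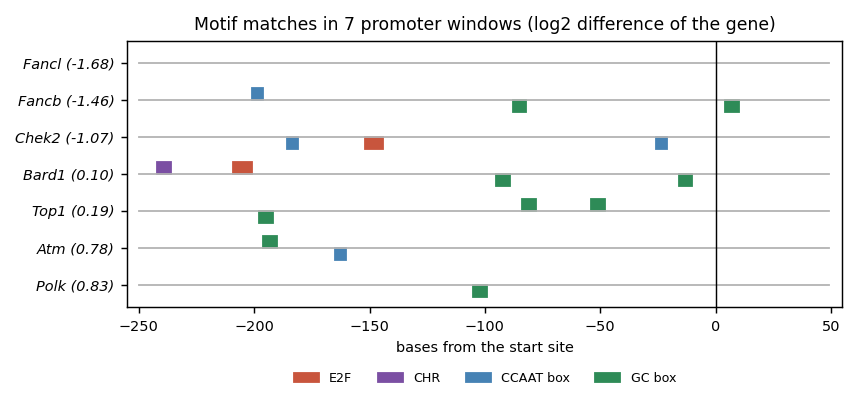
Positions of motif matches in the 7 printed promoter windows, in bases from the start site, with matches on the gene's strand drawn above the line and those on the other strand below. Genes are ordered by log2 difference (in brackets); the E2F match occurs in Chek2 (-1.07) and in Bard1 (0.10), and Fancl (-1.68) has none of the motifs.

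The E2F letters occurred in the windows of 6 of the 27 kept members (22.2%), against 4.20% of 10762 kept genes with a promoter and 2.26% of all 32851 promoter windows. The 6 were Chek2, Xrcc6, Msh6, Fancg, Bard1 and Brca2, whose differences ran from -1.07 to 0.61. Of the 6 members past 2-fold lower that had a window, 1 held an E2F match and 5 a CCAAT box (Fancb, Rad51ap1, Blm, Chek2 and Brca1). The CCAAT box occurred in 14 of the 27 (51.9%), against 41.7% of kept genes and 37.4% of all windows. GC boxes occurred in 17 of the 27, 63.0% against 61.9% of kept genes and 35.7% of windows, and CHR letters in 3, 11.1% against 16.9% and 19.2%.

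The interferon response letters occurred in 5 members, Tdp1, Chek1, Xrcc1, Fancg and Brca2 (18.5%, against 3.94% of kept genes and 3.44% of windows). The first 4 had differences below 0 and Brca2 one of 0.61, and in Fancg the match overlapped its E2F match. A pair of p53 half-sites was found in 0 of the 27 and in 0.0731% of all windows. These matches describe letters in a window of 300 bases and are not evidence of binding.

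Marker genes bore on what the cultures held. Of 15 measured dendritic cell markers, 14 reached the filter level on the control array and 13 on the other, with mean log2 levels of 7.02 and 6.99, and 4 were at least 2-fold lower and 5 higher. H2-Ab1 (10.16 and 11.30) and H2-Eb1 (9.53 and 10.89), class II chains, were among them, and Zbtb46, a defining transcription factor of conventional dendritic cells, was under the filter level on both arrays. The 4 lower ones, named after their values were seen, were Batf3 (-2.03), Clec10a (-2.01), Flt3 (-1.23) and Itgax (-1.03), and the other 3 higher ones were H2-Aa (1.88), Irf4 (1.83) and Csf2rb (1.49). Flt3 reached the filter level on the control array only (4.38 and 3.15) and differed by -0.28 against that level. Against it 3 dendritic cell markers were at least 2-fold lower and 5 higher. Macrophage markers were also at or above the filter level (13 of 13 on both arrays, mean 9.99 and 9.09, 5 at least 2-fold lower and 1 higher), with Lyz2 at 12.71 and 12.53 and Fcgr1 at 11.45 and 12.44. The 5 lower ones, named after their values were seen, were Chil3 (-2.99), Csf1r (-2.93), Mrc1 (-2.74), Ccr2 (-2.48) and Adgre1 (-2.29), and the higher one was Ly6c2 (1.18). Neutrophil and precursor markers were 11 of 18 at least 2-fold lower and 0 higher, with means of 7.80 and 5.84, and 18 control values and 13 conditioned-medium values reached the filter level. Among the lower ones were S100a8 at 12.16 and 10.53 and S100a9 at 11.77 and 9.57. The other lower ones were named after their values were seen. They were Camp (-5.54), Ngp (-5.16), Ctsg (-4.13), Elane (-4.09), Retnlg (-3.92), Mpo (-2.99), Fcnb (-2.85), Prtn3 (-1.69) and Ltf (-1.65). The conditioned-medium values of Camp, Elane, Retnlg, Mpo and Fcnb were under the filter level. Against that level 11 markers were at least 2-fold lower and 0 higher. Of the 18 markers, 14 were below 0. Those above 0, named after their values were seen, were Csf3r (0.89), Cebpe (0.80), Ly6g (0.74) and Lcn2 (0.10). The part of these cells in the lower repair gene values was not tested.

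Mast cell and basophil markers reached the filter level for 6 of 10 genes on the control array and 4 on the other. At least 2-fold lower were 3 (2 against the filter level) and 0 were higher. The lower ones were Prss34 (7.61 and 6.25) and, named after their values were seen, Cpa3 (-2.81) and Fcer1a (-1.30). Fcer1a differed by -0.29 against the filter level. Mcpt8, at 8.37 and 7.85, differed by -0.52 and was not among them. Among lymphocyte markers 7 of 11 were kept, 1 at least 2-fold lower and 0 higher, Cd79b (7.49 and 5.25) and Nkg7 (6.19 and 5.35) with the highest means. Cd79b and Nkg7 were the only 2 of the 7 below 0. Of 6 measured erythroid and megakaryocyte markers 3 were kept, with Pf4 at 10.86 and 10.67 and Itga2b at 4.90 and 5.27. Of 15 mammary epithelial and stromal markers 10 were kept, 2 at least 2-fold higher and 0 lower, with Col1a2 at 11.51 and 10.88 and Sparc at 9.25 and 9.60, and the epithelial Epcam and Krt18 were under the filter level on both arrays. The 2 higher ones, named after their values were seen, were the adhesion gene Cdh1 (6.42 and 10.21, 13.8-fold) and the matrix gene Dcn (3.96 and 7.98, 16.1-fold).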

How the data were processed

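Affymetrix arrays were hybridised with biotin-labelled cRNA made from Trizol-extracted RNA, per the labels' protocols. The authors deposited 1 table with a value for each of 41345 probe sets on each of 2 arrays, which the submitters' processing notes attribute to Affymetrix Expression Console. The sources used here name no algorithm, normalization or genome build. The deposited values were taken as log2 intensity, an inference from their range (-0.26 to 13.42 and 0.02 to 13.50, medians 4.10 and 4.09). The near-equal medians mean that a shift of most genes one way would not be seen.

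Symbols came from the platform annotation, in which 23521 probe sets have 1 symbol, 1814 have several and were not named, and 16010 are not listed. Of several probe sets for a gene, that with the highest mean over both arrays was used. For all 35 measured members the gene identifier matched that of the same symbol in RefSeq (GRCm38.p6). Older symbols in the lists were matched through RefSeq synonyms. With 1 array per condition no test was run, and the number of arrays limits the precision. Folds are 2 raised to the log2 difference.

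The members, their grouping, the lists and the alternatives were chosen with earlier results of these data known. Named genes were all members, the 2 highest and 2 lowest kept genes of each repair, cell cycle or p53 list with 12 fixed genes, and the 2 marker genes of highest mean per list. The lowess curve used a fraction of 0.3 and 3 iterations. Counting was tested on simulated data in which genes were moved well past 2-fold. That check does not cover genes close to the 2-fold mark. Scripts ran in Python 3.11.15 with pandas 2.3.3, numpy 2.4.6, statsmodels 0.14.6 (lowess) and matplotlib 3.10.9. Quantile normalization, lowess subtraction, other filters, centring, averaged probe sets and other folds were tried. Some of the fixed genes are not reported here. Promoters came from RefSeq, with the start site farthest upstream where there were several. For Rad54l, however, matches were read from neighbouring start sites.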

Additional observations from a re-analysis of the deposited data

Results flagged for a closer look

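Signal lay in probe sets outside the comparison: 5 probe sets carry the symbol of a repair member together with that of another gene, so no value was assigned to either gene. Of these, 3 were higher with conditioned medium than in the control. Probe set 17513908 was the highest of the 5, at 4.66 on the control array and 5.70 on the other, a log2 difference of 1.04. The other differences were 0.54, 0.45, -0.08 and -0.68. Among kept genes with 1 symbol, the share below 0 was 54.0%, so 3 of 5 higher is no clear excess. A rise past 2-fold was not rare there either, with a share of 8.63%.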

How the results depend on the processing

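The 3-fold threshold left 1 member lower, against 2.11% of kept genes, and the 1.5-fold threshold gave 16 lower and 3 higher. A filter at the 75th percentile kept 13 members, of which 3 were at least 2-fold lower (10.2% of genes under that filter, with 13.6% higher) and 12 below 0 (54.5%), with medians of -0.63 over members, -1.43 for homologous recombination, -1.68 for the Fanconi anaemia pathway (each 1 gene) and -0.38 for excision repair, bypass and supply, a change of sign. Lowess subtraction gave a median of -0.44 over members, without Chek2 and Brca1 among 5 genes past 2-fold. The filter on the mean gave -0.82 for the Fanconi anaemia pathway. With values under the filter level set to it, an alternative added after seeing the data, 4 members were lower and the medians were -0.45 over members, -0.57 for homologous recombination and -0.17 for the Fanconi anaemia pathway. Requiring both arrays at or above the filter level, also added afterwards, left 3 lower, with medians of -0.38, -0.071 and -0.93 for the same sets. The filters and the raised low values act by construction on fewer genes or smaller differences, and the cause of the lowess change was not tested. The other 75 comparisons of these counts and medians stayed within 1.5 times the count or within the probe set SD divided by the square root of the number of genes. No paired analysis was possible because each group has 1 array. Low signal limits the 8 members whose conditioned-medium value lay under the filter level.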
